A study of Mus musculus with 23 samples.

Results

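Retinoic acid genes were followed across 6 RNA-seq samples of mouse embryonic stem cells (ESCs). The 10 genes were Aldh1a2, Dhrs3, Cyp26a1, Cyp26b1, Crabp1, Crabp2, Rara, Rarb, Rarg and Stra8, out of 23369 gene names in the expression tables. They were set by name with no threshold on a value, although earlier results of these data were known by then. All cells were Kdm2b fl/fl ESCs, labelled as MS12, at passage p10-p20. The study's methods describe MS12 as the line in which the allele was made and the Kdm2b fl/fl lines as derived from crosses of mice that carry it. In these cells Cre recombination removes the exon for the ZF-CxxC domain that binds nonmethylated CpG DNA. Cre was a tamoxifen-inducible form at the Rosa26 locus and was carried by the untreated cells too. The 3 untreated samples kept the floxed alleles, and the 3 tamoxifen samples had received 4-hydroxy tamoxifen for 72 hr, at 800 nM in the sample labels. The deletion leaves a KDM2B protein without the domain, and a gene-level value does not resolve the lost exon. Kdm2b itself had a log2 fold change of -0.19 (adjusted p = 0.999 in limma, n = 3 per group) and therefore does not check the labels.

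Labels set the groups. Table names read the other way for all 6 samples, and under that reading every sign below would turn while sizes and p-values stay. No tamoxifen-treated cells without floxed alleles were among the RNA-seq samples, so effects of the drug, of Cre and of the deletion cannot be told apart. The cells had been grown on mouse embryonic fibroblast feeders and were left overnight to settle without them. The remaining 17 of 23 samples of the series were not analysed here.

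Retinoic acid is made from vitamin A. Retinol is oxidised to retinal and then, by retinaldehyde dehydrogenases such as ALDH1A2, to retinoic acid, while DHRS3 returns retinal to retinol and CYP26 enzymes break retinoic acid down. CRABP proteins carry retinoic acid in the cytosol, and RARA, RARB and RARG are the nuclear receptors, which bind DNA with RXR partners at repeated half-sites. In ESCs added retinoic acid drives differentiation, and Rarb, Cyp26a1, Crabp2 and Stra8 are among the genes it is known to induce.

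The promoter sequences are shown because KDM2B binds CpG-containing DNA and the receptors bind direct repeats. RefSeq promoter windows of GRCm38.p6, from 250 bases before to 50 bases after a start, were matched by symbol for 9 of 10 genes, with 15 windows in all. Crabp2 was not matched. Direct repeats of 2 half-sites were searched on both strands, with 1, 2 or 5 bases between them. The half-site had 8 allowed forms, which were AGGTCA or its variant AGGTGA, the form AGTTCA or its variant AGTTGA, the form GGGTCA or its variant GGGTGA, and the form GGTTCA or its variant GGTTGA. In the stretches below the half-sites stand in capitals, as read on the strand of the gene. The Rarb stretch lies at chr14:16575493-16575549 on the minus strand, the Cyp26a1 stretch at chr19:37697756-37697807 on the plus strand and the Stra8 stretch at chr6:34920726-34920779 on the plus strand, all in GRCm38.p6.
Rarb: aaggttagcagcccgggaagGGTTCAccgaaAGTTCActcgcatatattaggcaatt
Cyp26a1: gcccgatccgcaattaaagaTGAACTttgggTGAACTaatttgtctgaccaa
Stra8: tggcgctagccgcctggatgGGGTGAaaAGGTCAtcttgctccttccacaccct

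A repeat with a spacing of 5 was found in 2 of 15 windows of these genes (13.3%), against 0.323% of all 32851 windows. In Rarb it ran from base -53 to -37 relative to the start, and in Cyp26a1 from -32 to -16 on the opposite strand. A spacing of 2 was found in 1 window, that of Stra8 from -202 to -189 (6.67% of the windows, against 0.472% of all). A spacing of 1 was found in 0 of 15 and in 0.609% of all. A match describes the letters only, and a window without one says nothing about receptor binding. Some windows of Dhrs3 and of Rara overlap, and the genes were chosen as retinoic acid genes, so the shares are descriptions only.

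CpG content differed widely among the promoters. The Aldh1a2 window held 50 CpGs, an observed over expected ratio of 1.11 and a GC content of 78.0%, where the median window held 7 CpGs. The Crabp1 window held 17 CpGs at a ratio of 0.54. The lowest CpG ratio among the 6 genes with a single window was that of Cyp26b1, at 0.31, with 9 CpGs. With CpG-rich set as a GC content of 55% or more and a CpG ratio of 0.6 or more, 6 of 15 windows qualified (40%), against 30.3% of all. Overlapping windows of Rara are among the 6. The 250 bases before the start of Aldh1a2 (chr9:71215539-71215788, plus strand, GRCm38.p6) and of Crabp1 (chr9:54764498-54764747, plus strand, GRCm38.p6), the genes whose expression was highest in tamoxifen relative to untreated samples, are given with each CpG in capitals, 40 in the first and 12 in the second.
Aldh1a2: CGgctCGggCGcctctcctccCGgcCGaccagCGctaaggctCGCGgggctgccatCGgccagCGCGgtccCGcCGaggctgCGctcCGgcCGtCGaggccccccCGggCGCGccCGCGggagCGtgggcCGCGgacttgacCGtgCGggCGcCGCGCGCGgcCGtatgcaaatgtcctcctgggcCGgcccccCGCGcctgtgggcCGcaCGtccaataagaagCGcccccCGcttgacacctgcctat
Crabp1: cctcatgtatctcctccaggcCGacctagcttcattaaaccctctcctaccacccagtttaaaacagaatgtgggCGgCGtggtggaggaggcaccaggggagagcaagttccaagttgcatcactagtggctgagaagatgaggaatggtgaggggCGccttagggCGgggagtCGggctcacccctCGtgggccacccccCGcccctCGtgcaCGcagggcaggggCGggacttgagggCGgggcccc

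Expression is given as FPKM, fragment numbers scaled by transcript length and by library, so that levels of different genes can be set side by side. In untreated cells Rarg, Rara and both carriers stood highest, while the third receptor gene, Rarb, was near the bottom. The order of mean FPKM (± SD, n = 3) was Rarg 41.3 ± 5.79, Rara 28 ± 6.29, Crabp2 24.6 ± 13.9, Crabp1 16.9 ± 10.8, Stra8 5.8 ± 3.28, Dhrs3 1.36 ± 0.901, Cyp26a1 0.611 ± 0.258, Aldh1a2 0.549 ± 0.281, Rarb 0.22 ± 0.0476 and Cyp26b1 0.162 ± 0.0335. The ranges of neighbours in this order overlapped except between Rarg and Rara and between Stra8 and Dhrs3. Rarg lay above 91.4% of all gene names and Cyp26b1 above 37.8%. In tamoxifen samples Crabp1, at a mean of 27.3, ranked above Rara at 22.4 and Crabp2 at 16, with overlapping ranges.

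**Figure D1:**
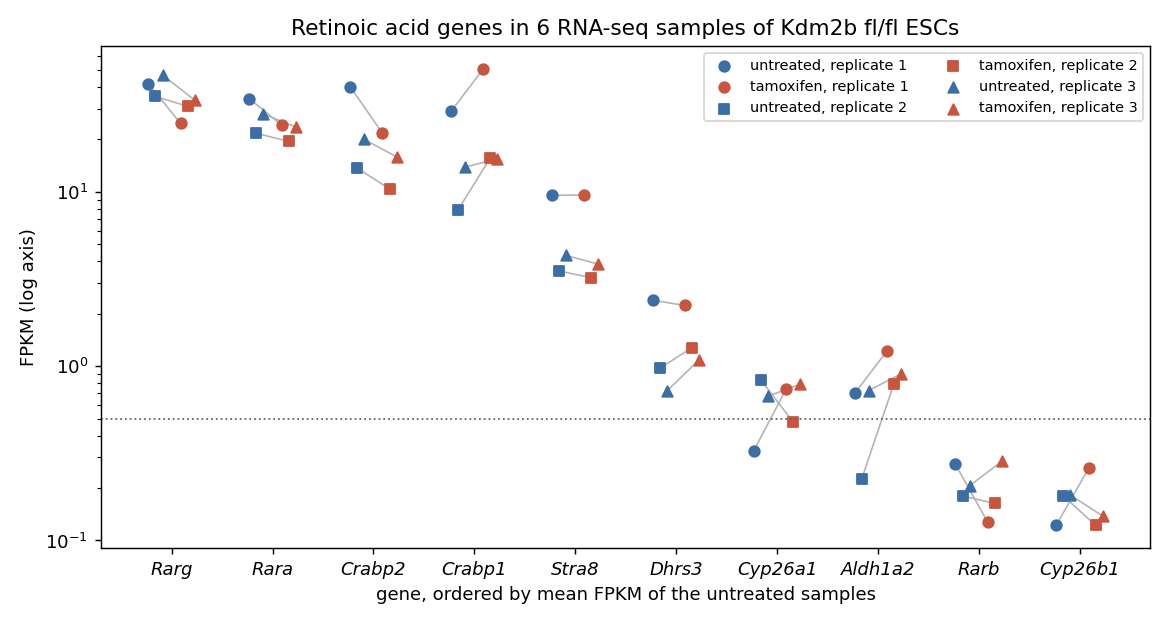
FPKM of the 10 genes in each of the 6 samples on a log10 axis, with blue untreated and red tamoxifen points, grey lines joining samples of the same replicate number and the dotted line at the filter of 0.5 FPKM. Receptors Rarg and Rara and both CRABP genes lie well above the line, Rarb and Cyp26b1 lie below it in all 6 samples.

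Genes with at least 0.5 FPKM in at least 3 of 6 samples were tested, 12997 in all, with limma on log2(FPKM + 0.1), two-sided, with Benjamini-Hochberg adjustment over all of them and a threshold of 0.05. Of the 10 genes 8 passed this filter, which sums over both groups, and Rarb and Cyp26b1 did not. Without a term for the replicate number 0 of the 8 passed the threshold and 0 had an unadjusted p under 0.05, where 0.0231% of all genes tested were called higher and 0.00769% lower (0.0308% in either direction). Samples of the same replicate number deviated together, and when that number entered the fit as a block, 1 of the 8 was higher (Crabp1) and 1 was lower (Crabp2). In that fit 4.33% of all genes tested were called higher and 6.06% lower (10.4% in all), and 1 gene in each direction is too few to set the 8 apart from these shares. An unadjusted p under 0.05 in the blocked limma fit was reached by 5 of the 8, Aldh1a2, Crabp1, Crabp2, Rara and Rarg. The share of all genes tested under that level was not computed. Such counts, here and below, are therefore descriptions only. After scaling to TPM, the same total in every sample, the blocked fit called 430 genes higher and 336 lower, in place of 563 and 787. The median log2 fold change was 0.04 over the 8 genes and -0.02 over all genes tested, the latter 0.08 after scaling to TPM.

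Aldh1a2 makes retinoic acid from retinal and lies on chromosome 9 (mm9 71063596 to 71144050, plus strand). Its FPKM was 0.698, 0.225 and 0.725 in untreated replicates 1, 2 and 3, and 1.22, 0.795 and 0.904 in tamoxifen replicates 1, 2 and 3. All 3 tamoxifen values lay above all 3 untreated ones, as for 3.09% of all genes tested. The log2 fold change was 0.82 (SE 0.44, adjusted p = 0.999 in limma) and, with the replicate block, the SE was 0.28 and the adjusted p = 0.102. The pairs of equal replicate number differed by 0.73, 1.46 and 0.28 on the log2 scale. Without untreated replicate 2, the lowest sample, the log2 fold change was 0.38 with no block, and without any other single sample it lay between 0.67 and 1.06. An exact permutation test of the 3 against 3 samples gave p = 0.1, the smallest it can give.

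Dhrs3 reduces retinal back to retinol and lies on chromosome 4 (mm9 144482730 to 144517548, plus strand). Its FPKM was 2.39, 0.973 and 0.721 in untreated and 2.23, 1.28 and 1.09 in tamoxifen replicates 1, 2 and 3. Replicate 1 was highest in both groups, and the groups overlapped. The log2 fold change was 0.27 (SE 0.47, adjusted p = 0.999, and 0.398 with the block in limma).

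Cyp26a1 and Cyp26b1 encode enzymes that oxidise retinoic acid for removal. Cyp26a1 (mm9 chromosome 19, 37772298 to 37776026, plus strand) had FPKM of 0.327, 0.833 and 0.672 in untreated and 0.737, 0.479 and 0.789 in tamoxifen replicates. The groups overlapped, the pairs pointed in different directions (0.97, -0.69 and 0.20), and the log2 fold change was 0.16 (SE 0.41, adjusted p = 0.999, and 0.773 with the block in limma). Cyp26b1 (mm9 chromosome 6, 84521408 to 84543902, minus strand) stayed at 0.123, 0.18 and 0.182 in untreated and 0.259, 0.122 and 0.138 in tamoxifen replicates. The confidence limits deposited with these values ran from 0.05 to 0.363, and the gene did not enter the test.

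Crabp1, a cytosolic carrier of retinoic acid, lies on chromosome 9 (mm9 54612615 to 54620916, plus strand). Its FPKM was 29, 7.91 and 13.9 in untreated and 50.9, 15.7 and 15.5 in tamoxifen replicates 1, 2 and 3. Each tamoxifen sample exceeded the untreated sample of its number, by 0.81, 0.98 and 0.15 on the log2 scale, while the groups as wholes overlapped. The log2 fold change was 0.64, a 1.56-fold higher value. Without tamoxifen replicate 1 it was 0.08, without untreated replicate 2 it was 0.20 and without untreated replicate 1 it was 1.13, in fits with no block. Its SE was 0.57 without the block (adjusted p = 0.999 in limma) and 0.16 with it (adjusted p = 0.0445). Leaving out replicate number 2 ended this call (adjusted p = 0.245), and leaving out number 1 or 3 did not (0.038 and 0.00937).

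Crabp2, the related carrier known to hand retinoic acid to RARA, lies on chromosome 3 (mm9 87752615 to 87757294, plus strand). Its FPKM was 40.2, 13.7 and 20 in untreated and 21.7, 10.4 and 15.9 in tamoxifen replicates. Each tamoxifen sample lay below the untreated sample of its number, by log2 differences of -0.88, -0.39 and -0.33, and the groups overlapped. The log2 fold change was -0.53 (SE 0.42, adjusted p = 0.999 in limma), and with the block the SE was 0.13 and the adjusted p = 0.0428. In fits with no block it was -0.11 without untreated replicate 1, -0.26 without tamoxifen replicate 2 and -0.88 without untreated replicate 2. The blocked call lay close to the threshold: the blocked adjusted p was 0.0519, 0.157 and 0.0518 without replicate number 1, 2 and 3, 0.0505 after quantile normalization and 0.27 after scaling to TPM. The FPKM of Crabp1 lay above the upper confidence limit deposited with it in 6 of 6 samples and that of Crabp2 in 5 of 6, as did up to 19.3% of the rows with at least 1 FPKM in a sample.

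Because both carriers were measured in the same library, their ratio was also taken, a choice made after the values had been seen. Crabp1 over Crabp2 was 0.721, 0.58 and 0.698 in untreated and 2.34, 1.5 and 0.971 in tamoxifen replicates 1, 2 and 3. The groups did not overlap. The mean log2 ratio was -0.59 ± 0.17 and 0.59 ± 0.63 (SD, n = 3 each), a difference of 1.18, and exact permutation gave p = 0.1 over samples and 0.25 over pairs, the smallest either design can give. All pairs were higher for Crabp1 and lower for Crabp2, so the result over pairs was fixed before the ratio was taken.

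Of the receptors, Rara lies on chromosome 11 (mm9 98799010 to 98836256, plus strand) and had FPKM of 34.3, 21.7 and 28 in untreated and 24.2, 19.5 and 23.6 in tamoxifen replicates. Each tamoxifen sample was below its untreated counterpart but the groups overlapped, and the log2 fold change was -0.30 (SE 0.23, adjusted p = 0.999, and 0.108 with the block in limma). Rarg, on chromosome 15 (mm9 102065371 to 102087914, minus strand), had 41.7, 35.3 and 46.8 in untreated and 24.7, 31 and 33.6 in tamoxifen replicates. All 3 tamoxifen values of Rarg lay below all 3 untreated ones, as for 5.4% of all genes tested. The log2 fold change of Rarg was -0.47 (SE 0.22, adjusted p = 0.999 in limma), and with the block the SE was 0.12 and the adjusted p = 0.0501, just outside the threshold. Quantile normalization with the block gave Rarg an adjusted p of 0.0434, a pseudocount of 1 with the block 0.0382 and scaling to TPM with the block 0.333.

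Rarb, on chromosome 14 (mm9 17263354 to 17407724, minus strand), is the receptor gene best known as a retinoic acid target. Its FPKM was 0.273, 0.18 and 0.206 in untreated and 0.127, 0.163 and 0.285 in tamoxifen replicates. The groups overlapped, the deposited limits ran from 0.0504 to 0.424, and the gene did not enter the test.

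Stra8, a germ-cell gene that retinoic acid induces before meiosis, lies on chromosome 6 (mm9 34870960 to 34889342, plus strand). Its FPKM was 9.55, 3.52 and 4.32 in untreated and 9.61, 3.22 and 3.85 in tamoxifen replicates. The groups nearly coincided number by number, with a log2 fold change of -0.09 (SE 0.49, adjusted p = 0.999 in limma, and 0.631 with the block and an SE of 0.12). Its direction turned to 0.01 after scaling to TPM.

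**Figure D2:**
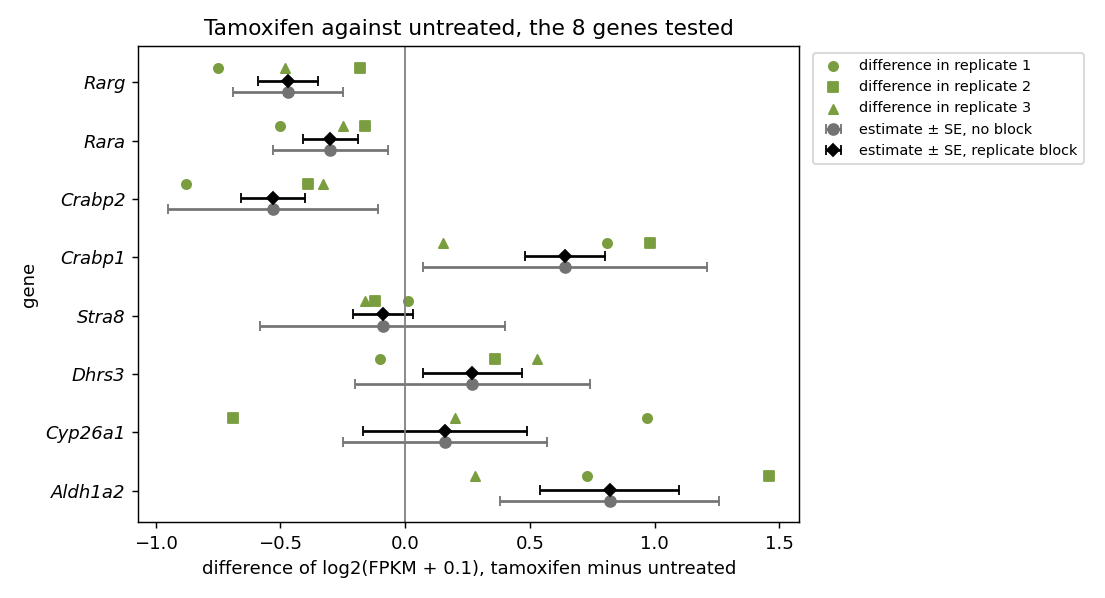
Difference of log2(FPKM + 0.1), tamoxifen minus untreated, for the 8 tested genes, with a green point for each replicate number and the fitted log2 fold change with its standard error, grey without and black with the replicate block. All 3 points lie above 0 for Aldh1a2 and Crabp1 and below 0 for Crabp2, Rara and Rarg.

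All 3 pairs were higher for 2 of the 8 genes and lower for 3, where 24.8% and 28.2% of all genes tested were. Values also varied with the replicate number. Its term in the blocked fit, a test chosen after the values had been seen, passed the threshold for Dhrs3, Crabp1, Crabp2, Rara and Stra8, 5 of 8, against 62.8% of all genes tested. In the same 5 genes replicate 1 was highest in both groups, as for 31.6% of all. A summed list of 15 fibroblast markers was at 129, 284 and 307 FPKM in untreated and 147, 229 and 252 in tamoxifen replicates, so replicate 1 was lowest in both groups. The total FPKM of all genes was also lowest in replicate 1 of both groups. That total was 549379.4, 1045707.3 and 804941.1 in untreated and 621052.1, 929106.9 and 648889.4 in tamoxifen replicates. The marker sum was not scaled to it. S100a4 made up a large part of the sum, at 51.7, 123 and 138 in untreated and 39.7, 85.8 and 122 in tamoxifen replicates. Its FPKM lay above the upper confidence limit deposited with it in 6 of 6 samples. In the list, Col1a1 stood at 15.6, 40.3 and 31.2 and at 19.3, 38.2 and 29.7. Not all of the markers followed this order. Acta2 was highest in replicate 1 of the tamoxifen samples (14.6, 25.8 and 66.9, and 40.1, 15.6 and 32.3). Fbln1 was lowest in replicate 3 of both groups (14.8, 18.2 and 9.37, and 14.7, 16.1 and 10.7). Of the 14 tested genes of the list 10 passed the threshold on the replicate term, against 62.8% of all genes tested. By group, 0 of them were higher and 1, Twist1, was lower with the block, where 4.33% and 6.06% of all genes tested were. The part of feeder cells in the replicate pattern was not tested, and in bulk samples fewer cells of a type and less RNA per cell cannot be told apart. Of the ESC markers, Dppa5a was the most abundant, at 1401 to 2221 FPKM in untreated and 1582 to 3534 in tamoxifen replicates, and Pou5f1 was at 369 to 690 and 475 to 832. The list summed to 2703 to 3717 in untreated and 2982 to 5238 FPKM in tamoxifen replicates, with 0 of 8 called by limma with or without the block (3 at an unadjusted p under 0.05 with it, 0 without).

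**Figure D3:**
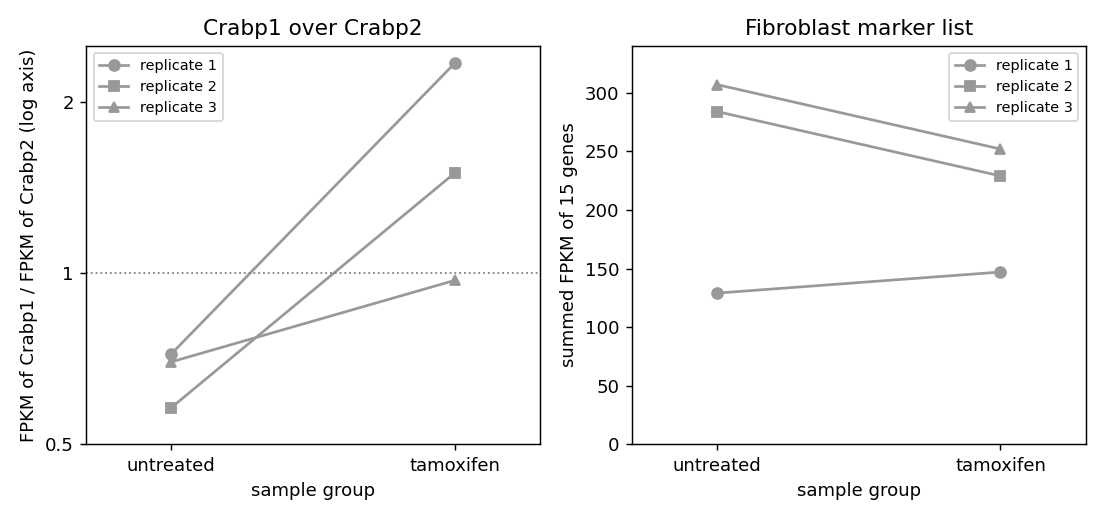
Left, FPKM ratio of Crabp1 to Crabp2 in each sample on a log axis, and right, summed FPKM of 15 fibroblast markers, not scaled to the total FPKM of a sample. Lines join samples of the same replicate number and the dotted line is at a ratio of 1. S100a4 makes up a large part of the marker sum. The 3 untreated ratios lie between 0.58 and 0.721 and the 3 tamoxifen ratios between 0.971 and 2.34, while the marker sum is lowest in replicate 1 of both groups, at 129 and 147.

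Profiles over the 6 samples were also compared. Pearson's r of log2(FPKM + 0.1), a description over 6 samples that share replicate numbers, was 0.96 for Crabp2 and Rara, 0.87 for Crabp1 and Stra8, 0.86 for Crabp2 and Stra8 and 0.84 for Dhrs3 and Stra8. It was 0.58 for Crabp1 and Crabp2, and the lowest, -0.54, joined Dhrs3 and Cyp26a1. Among all genes tested the profile of Crabp1 was nearest to Ppie (r = 0.9994), 4930452B06Rik (0.9986) and Spg21 (0.9975), and that of Crabp2 to Ada (0.9949), Irak4 (0.9925) and Bmyc (0.9914).

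The rest of the pathway was read from 6 lists of 86 genes, of which 60 were tested. Without the block 0 passed the threshold in limma (6 had an unadjusted p under 0.05), and with it 4 were higher and 8 lower, where 4.33% and 6.06% of all genes tested were. These counts include Stra6 and Rxrg, which passed the filter only through their tamoxifen samples, and Gata6 and Cdx2, which passed only through their untreated ones. For those genes a difference was built into the selection. The lists, like the 10 genes, were drawn up with earlier results known. Without replicate number 2 the blocked fit called 0 in either direction. On the supply side, Stra6, the cell-surface receptor for retinol-binding protein, rose with the block from 0.129, 0.362 and 0.0563 FPKM in untreated to 0.54, 0.689 and 0.528 in tamoxifen replicates. Its log2 fold change was 1.42 (SE 0.34, adjusted p = 0.0401 in limma with the block and 0.74 without). Stra6 passed the filter only through its tamoxifen samples, so a difference was built into its selection. It was the 1 gene called of 4 tested for uptake and storage (median -0.05). With replicate number 1 left out, the blocked fit called 0 of the 4, so the call of Stra6 ended.

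Among oxidoreductases of retinol and retinal 1 of 9 was higher with the block, Dhrs4, where 4.33% of all genes tested were. Dhrs4, a retinal reductase, went from 17.6, 11 and 17.4 to 25.2, 16.6 and 22.3 FPKM (log2 fold change 0.48, adjusted p = 0.0263 in limma with the block). In the list of other retinaldehyde dehydrogenases and of catabolism 0 of 2 tested were called by limma, and 1 had an unadjusted p under 0.05 with the block. Cyp2s1 was at 1.43, 2.27 and 0.956 in untreated and 1.87, 3.04 and 1.49 FPKM in tamoxifen replicates, and Aldh1a7 at 0.486, 0.267 and 0.532 and at 0.501, 0.321 and 0.598. Aldh1a1, which shares the reaction of Aldh1a2, was not tested and stood at 0.312, 0.384 and 0.698 in untreated against 0.254, 0.18 and 0.196 in tamoxifen replicates.

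Of 10 tested nuclear receptors and carriers 2 were higher with the block, where 4.33% of all genes tested were, although the list's median was -0.14. Rxrg, an RXR partner, went from 0.153, 0.131 and 0.2 to 0.555, 0.544 and 0.882 FPKM (log2 fold change 1.52, adjusted p = 0.0194 in limma with the block, 0.43 without), and it too passed the filter only through its tamoxifen samples. Fabp5, a fatty acid carrier that can also bind retinoic acid, went from 16.5, 11.1 and 12.4 to 37.2, 18.2 and 16.1 (log2 fold change 0.75, adjusted p = 0.0242 in limma with the block). Of 14 tested coregulators 0 were called by limma, with a median of -0.05 (4 at an unadjusted p under 0.05 with the block, 0 without). The most abundant, Hdac3 of the corepressor complex, was at 33.4 to 37.7 FPKM in untreated and 35 to 39.3 in tamoxifen replicates, and the corepressor Ncor1 at 24.4, 29.3 and 37.5 and at 23.1, 30 and 35.5.

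Genes known to be induced by retinoic acid had a median log2 fold change of -0.63 over 23 tested, and with the block 8 were lower and 1, Stra6, higher (6.06% and 4.33% of all genes tested). Pax6, a neural transcription factor, fell from 6.96, 4.33 and 5.64 to 1.12, 1.38 and 2.6 FPKM, without overlap (log2 fold change -1.73, adjusted p = 0.0103 in limma with the block, 0.38 without). Gata6, an endoderm factor, fell from 1.06, 0.581 and 1.74 to 0.311, 0.239 and 0.433 (log2 fold change -1.43, adjusted p = 0.0174 with the block, 0.66 without). Cdx2, a caudal homeobox factor, fell from 1.82, 0.816 and 1.14 to 0.407, 0.433 and 0.494 (log2 fold change -1.26, adjusted p = 0.0312 with the block, 0.61 without). Rai1 fell from 6.46, 8.28 and 8.2 to 2.2, 4.43 and 5.31 (log2 fold change -1.01, adjusted p = 0.0162 with the block, 0.74 without). Meis1, Zfp703, Gbx2 and Egr1 were the other 4 called lower. Gata6 and Cdx2 passed the filter only through their untreated samples. Of the 23 genes 5 did not overlap in the lower direction and 1 in the higher (5.4% and 3.09% of all). Gata6 and Cdx2 are among the 5 and Stra6 is the 1, and for these the filter had fixed the lack of overlap in advance. On the replicate term 12 of the 23 passed the threshold (62.8% of all).

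**Figure D4:**
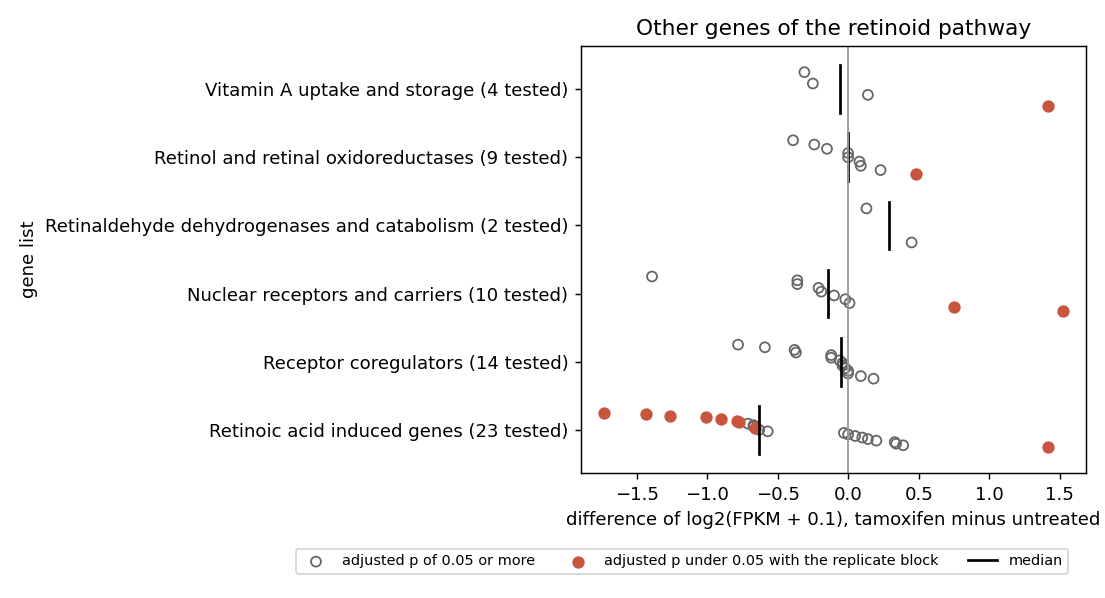
Difference of log2(FPKM + 0.1), tamoxifen minus untreated, for each tested gene of the 6 lists, with filled points for an adjusted p under 0.05 in the blocked fit and a vertical bar at each list's median. Filled points lie right of 0 for Stra6, Dhrs4, Rxrg and Fabp5, and 8 of the 9 filled points of the retinoic acid induced genes lie left of 0.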

How the data were processed

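RNA-seq was made from polyA+ RNA with a directional kit and paired-end reads of 3 untreated and 3 tamoxifen samples. The authors aligned to mm9 and deposited FPKM per gene row, with confidence limits and a status, in Cufflinks layout. The submitters' processing notes name TopHat2 0.5 and Cuffdiff 2.1.1. Read totals are not in these tables, so no counting interval is given. Summed FPKM ran from 549379.4 to 1045707.3 per sample.

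Rows of 1 gene name were summed, 6 names with a failed row were left out, and log2(FPKM + 0.1) was fitted with limma 3.58.1 in R 4.3.3 (lmFit, eBayes with trend) over genes with at least 0.5 FPKM in at least 3 of 6 samples. The fit was also run on simulated data with normal noise and with residual spreads shuffled over genes. That setting differs from the real data, so it does not check the calls made here. Labels give replicate numbers 1 to 3 in both groups. Deviations from group means correlated at 0.54, 0.61 and 0.51 between samples of numbers 1, 2 and 3, each sample matching its own number best, so the numbers were taken to pair the samples. Labels call them biological triplicates. The sample labels give tamoxifen in nM and the series text in µM.

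The genes and lists were chosen with earlier results of these data known. Named genes are all 10, Kdm2b, and, of each list, up to 4 called genes per direction by size of change, or up to 4 of the most abundant where none was called. Aldh1a1, Col1a1, Acta2 and Fbln1 are named outside this rule, after their values were seen. So are the tested but uncalled markers of the neural, endoderm, streak and germ-line lists. Alternatives were pseudocounts, scalings, filters, the highest row per name, the replicate block and samples left out. Sequences came from RefSeq (GRCm38.p6), loci from the files (mm9). Python 3.11.15 with pandas 2.3.3 was used.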

Additional observations from a re-analysis of the deposited data

How the results depend on the processing

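Of 173 values of the 8 tested genes under the alternatives, 154 kept their direction and side of the threshold, 10 came to pass it and 9 turned. The turns were those of Dhrs3 (-0.02 without tamoxifen replicate 1, -0.07 without untreated replicate 3), Cyp26a1 (-0.24 with the replicate block without number 1, -0.17 without untreated replicate 1) and Stra8 (0.01 after scaling to TPM, with or without the block, and 0.21, 0.08 and 0.33 without tamoxifen replicate 2, tamoxifen replicate 3 and untreated replicate 1). With single samples left out, Dhrs3 ran from -0.07 to 0.73, Cyp26a1 from -0.17 to 0.40, Stra8 from -0.57 to 0.33, Rara from -0.47 to -0.14 and Rarg from -0.58 to -0.34. With the block and a number left out, Cyp26a1 ran from -0.24 to 0.59. The cause was not tested.

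With the replicate block, the count of the 10 genes called higher was 1, also with a pseudocount of 1, quantile normalization or TPM, and 0 to 1 with samples left out. The count called lower was 1 with the block, 2 with a pseudocount of 1, 1 with quantile normalization, 0 with TPM and 0 with any sample or number left out. Over all genes, 3 were higher and 1 lower without the block, and 2 to 5 and 0 to 7 with 1 sample left out. With the block 563 were higher and 787 lower, 659 and 931 with a pseudocount of 1, 604 and 595 with quantile normalization and 430 and 336 with TPM. With the block and number 1, 2 or 3 left out, 744, 36 and 359 were higher and 1011, 43 and 478 lower. Without the block, 1 gene was higher and 0 lower with no filter, 0 and 0 with at least 1 FPKM in all samples, and 0 lower with a pseudocount of 1. With the block and no filter, an alternative added after seeing the data, 0 of 23363 genes were called, Crabp1 having an adjusted p of 0.347 and Crabp2 of 0.301.

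Over the 6 lists the block gave 4 higher and 8 lower, 4 and 10 with a pseudocount of 1, 4 and 7 with quantile normalization, 3 and 7 with TPM, and 0 to 4 and 0 to 8 with samples left out. At the main settings the block changed the calls of Crabp1 and Crabp2 and of no other of the 8 genes, and Rarg came to pass with the block under a pseudocount of 1 or quantile normalization. At least 1 FPKM in all samples left no value for Aldh1a2, Dhrs3 and Cyp26a1, and Rarb and Cyp26b1 had a value only with no filter (-0.16, SE 0.24, and 0.03, SE 0.23).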

Other observations

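Markers of cell types that retinoic acid is known to affect were also read. With the replicate block in limma, 3 of 5 tested neural markers were lower in tamoxifen samples: Pax6 (above), Sox1 and Nes. Over all genes tested that fit called 6.06% lower and 4.33% higher. Sox1, an early neural factor, was at 4.06, 3.66 and 3.66 FPKM in untreated and 1.69, 1.67 and 2.39 in tamoxifen replicates (log2 fold change -0.97, adjusted p = 0.0153 with the block and 0.5 without), and its locus overlaps that of Gm5607. Nes, which encodes the filament nestin, was at 18, 14.7 and 13.5 and at 10.5, 10.4 and 10.4 (log2 fold change -0.55, adjusted p = 0.0275 with the block and 0.86 without). The summed neural list overlapped between groups, at 72.1 to 95.2 and 69.4 to 81.3 FPKM. Most of that sum was Tubb3, at 63.7, 47 and 50.8 FPKM in untreated and 66.4, 60.4 and 51.4 in tamoxifen replicates. Tubb3 (log2 fold change 0.15) and Map2 (-0.41) were tested and not called.

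Of 4 tested primitive endoderm markers 2, Gata4 and Gata6, were lower with the block (6.06% of all genes tested), although Gata6 had passed the filter only through its untreated samples. The others were not called, Dab2 at a log2 fold change of 0.23 and Pdgfra at -0.44. In the blocked fit, 1 of the 4 was called lower after quantile normalization and 1 without replicate number 1. Of 3 tested markers of primitive streak and mesoderm 1, Eomes, was lower, and T (log2 fold change 0.38) and Kdr (-0.75) were not called. In the blocked fit, 0 of the 3 were called after quantile normalization, and 1 was lower without replicate number 1. Of 7 tested germ-line markers 2, Dazl and Sohlh2, were higher (4.33% of all genes tested), and the other 5 were not called. Those 5 had log2 fold changes of 0.37 (Sycp3), 0.31 (Mael), -0.03 (Dmrt1), -0.05 (Ddx4) and -0.51 (Tex101). Dazl, an RNA-binding protein of germ cells, went from 2.29, 1.76 and 2.68 to 5.16, 3.16 and 5.03 FPKM (log2 fold change 0.95, adjusted p = 0.0105 with the block and 0.67 without). Sohlh2, a germ-cell transcription factor, went from 2.75, 1.41 and 1.91 to 6.51, 3.64 and 4.21 (log2 fold change 1.21, adjusted p = 0.00438 with the block and 0.54 without). Without the block limma called 0 genes of these lists. An unadjusted p under 0.05 in that fit was reached by 3 neural, 2 endoderm, 0 streak and 2 germ-line markers. Gata6, which passed the filter only through its untreated samples, is among the endoderm ones. The share of all genes tested under that level was not computed.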
